A study of Homo sapiens with 9 samples.

Results

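The RAS, RAF, MEK and ERK core genes described here are 7 genes chosen by symbol: HRAS and NRAS (RAS GTPases), ARAF and BRAF (RAF kinases), MAP2K1 and MAP2K2 (the MEK kinases) and MAPK3 (the ERK1 kinase). They are 7 of the 62700 genes in the count table and 7 of the 17576 genes tested, so every member passed the filter on low counts. Their close paralogues were not analysed here. The question put to the data was whether the message levels of the cascade itself changed while the genes it feeds back on were induced.

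RNA was measured by polyA-selected bulk RNA sequencing of 293T cells, an immortal line of human embryonic kidney origin that is easily transfected. The cells received an empty vector, a plasmid for HA-CIC::DUX4, or a plasmid for HA-CIC(ex20)::NUTM1(ex6), called CIC::NUTM1 here. HA is an epitope tag, and CIC is a DNA-binding repressor that is found fused to DUX4 or NUTM1 in sarcomas. There were 3 libraries a group, each from 300000 cells of this line harvested about 48 hours after transfection, and the labels give each replicate its own day. All groups went through transfection, so the empty vector group carries that treatment too. The promoter that drives the fusions and the share of cells that took up a plasmid are not given in the sources used here. The transcripts of the fused genes were not analysed here, and identity of the plasmids was therefore taken from the labels alone.

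RAS proteins are membrane-bound switches that are active when they carry GTP. Active RAS brings RAF kinases to the membrane, RAF phosphorylates MEK, and MEK phosphorylates ERK, which then acts on targets in the cytoplasm and nucleus. Output of the cascade is set largely by these modifications of protein, which RNA sequencing does not measure. ERK signalling relieves repression by CIC at genes such as ETV4, ETV5, DUSP6 and SPRY4, some of which encode proteins that dampen the same cascade.

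Total counts were 16970771 to 33655445 per library, and the members held 668 to 8750 counts each in a library, or 0.0804% to 0.0885% of a library in sum. Libraries of a group shared a Pearson correlation of at least 0.982 across genes and differed by more than counting noise (chi-square of 5.94 to 10.5 per degree of freedom). All 8 markers of the 293T line had reads in every library, from PAX2 at 4.14 to 8.23 CPM (counts as a share of library size, scaled by TMM, edgeR's trimmed mean of M values) to VIM at 552 to 749 CPM. Their sum was 1537 to 1732 CPM with empty vector, 1575 to 1667 with CIC::NUTM1 and 1482 to 1524 with CIC::DUX4, but single markers moved between the groups. NEFL and NEFM were called lower and LIN28B higher with both fusions, KRT8 was called higher with CIC::DUX4, and CDH2 and VIM higher with CIC::NUTM1. The 6 markers of other cell types summed to 0.400 to 1.11 CPM with empty vector, 1.14 to 2.34 with CIC::NUTM1 and 1.00 to 2.55 with CIC::DUX4, none of them above 1.44 CPM in any library. PTPRC among them was called higher with both fusions, at means of 0.0195, 0.907 and 0.411 CPM in the same order of groups, and CD3E was at 0 with empty vector and CIC::NUTM1. With CIC::DUX4 the calls of NEFM and PTPRC were kept in 3 of 6 refits that each left out 1 library, lost for NEFM without each of that group's libraries in turn and for PTPRC without its replicate 1 or empty vector replicate 1 or 3. The other marker calls named here were kept in 4 to 6 of 6. The part of these movements in the results below was not tested. These are bulk samples, so a change in the share of cells with a message and a change in RNA per cell cannot be told apart.

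Per kilobase of the principal transcript, MAP2K2 was the most abundant member in the empty vector group, at 160 ± 10.7 CPM per kb (SD, n = 3 here and below). HRAS followed at 63.8 ± 6.17 and MAPK3 at 60.5 ± 2.49 CPM per kb. These neighbours lay within each other's spread. ARAF at 32.4 ± 1.33 and MAP2K1 at 31.5 ± 0.985 CPM per kb overlapped, with NRAS next at 30.0 ± 0.653. The ARAF libraries (31.1 to 33.8 CPM per kb) and the MAP2K1 libraries (30.52 to 32.5) all lay above those of NRAS (29.3 to 30.45), for MAP2K1 by less than either SD. BRAF was lowest, at 6.43 ± 0.253 CPM per kb. The order was the same with CIC::DUX4 (165, 65.3, 56.1, 34.8, 31.7, 29.5 and 7.31 CPM per kb, in the order above). With CIC::NUTM1, MAP2K2, HRAS and MAPK3 again led with 171, 77.5 and 67.6 CPM per kb, and BRAF was again lowest with 6.66. The length used matters for the middle of this order: over all annotated exons NRAS stood at 30.0 and ARAF at 22.5 CPM per kb in the empty vector group, while MAP2K2 (52.9) and BRAF (1.77) kept their ends.

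**Figure D1:**
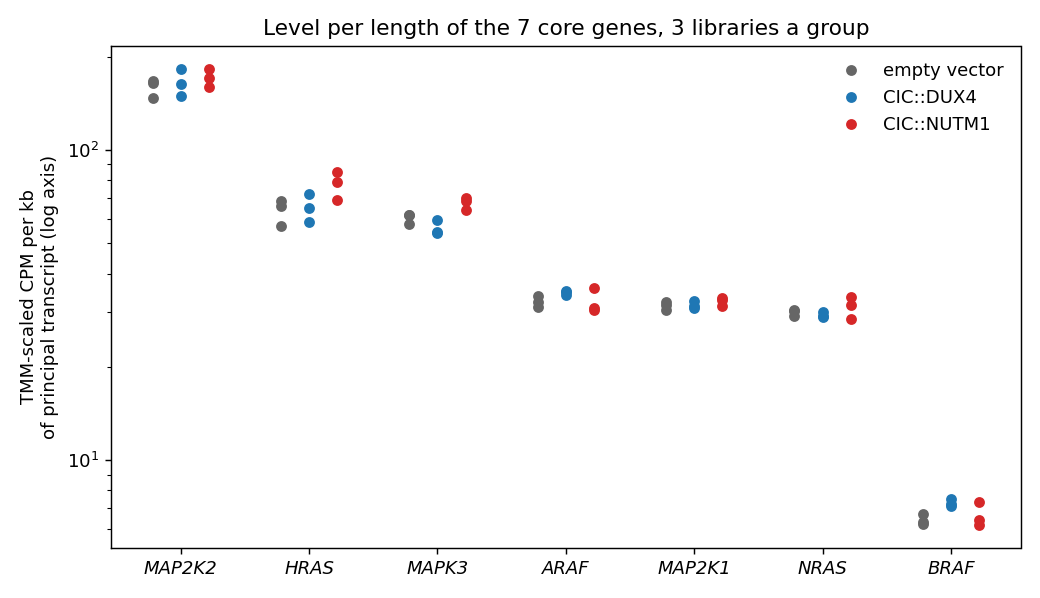
Level per length of the 7 core genes, as TMM-scaled CPM per kb of the principal transcript on a log axis; each point is 1 library, in grey for empty vector, blue for CIC::DUX4 and red for CIC::NUTM1. MAP2K2 lies near 160 CPM per kb and BRAF near 6.43 in the empty vector group, and the 3 groups of libraries sit at similar heights for each gene.

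With CIC::DUX4, no member was called higher or lower than with empty vector (0 of 7 by edgeR at an adjusted p under 0.05, while 1 had an unadjusted p under 0.05). Over all tested genes 6.96% were called higher and 1.27% lower in this comparison, 8.24% in either direction, and 19.1% had an unadjusted p under 0.05. With CIC::NUTM1, 1 member was called higher than with empty vector (HRAS) and none lower, against 11.5% of all tested genes higher and 3.83% lower (15.3% in all). An unadjusted p under 0.05 was found for 2 members there and for 26.9% of all genes. Between the fusions, 1 member (MAPK3) was called higher in the CIC::NUTM1 libraries and none lower, against 4.97% and 1.64% of all tested genes (6.61% in all). An unadjusted p under 0.05 was found for 2 members and for 18.2% of all genes. For 7 members, the shares of called genes amount to 0 or 1 gene. The comparisons share libraries: both fusions were set against the same 3 empty vector libraries.

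Every member's 95% interval lay within 1.5-fold either way in each of the 3 comparisons. Over all tested genes that held for 57.4% in the CIC::DUX4 comparison, 54% in that of CIC::NUTM1 and 57% where the fusions were compared. The median log2 fold change of the members was 0.03 for CIC::DUX4 against empty vector and 0.06 for CIC::NUTM1, beside 0.00 over all tested genes in both. The standard errors of the members' changes were 0.07 to 0.09 on the log2 scale, below the median of 0.14 over all tested genes. The members held 668 to 8750 counts in a library, while the tested genes include many with fewer counts and wider intervals. Shares over genes with counts like the members' were not computed.

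**Figure D2:**
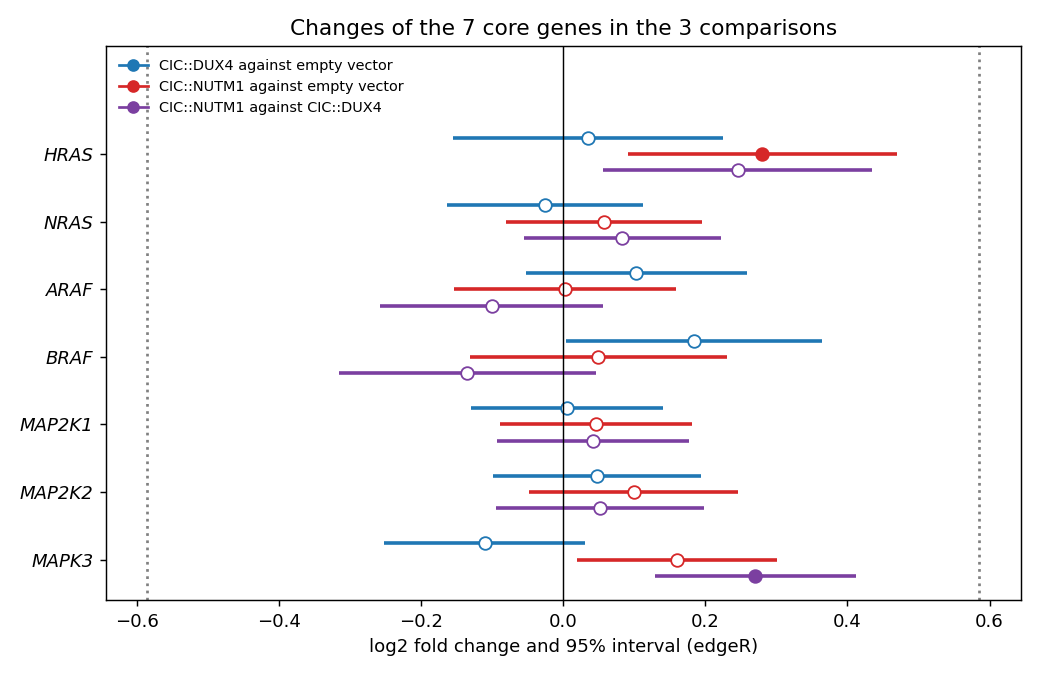
Log2 fold change (point) and 95% interval (line) of each core gene in the 3 comparisons by edgeR; filled points passed an adjusted p of 0.05, and dotted lines mark 1.5-fold either way. Filled points are HRAS with CIC::NUTM1 against empty vector (0.28) and MAPK3 between the fusions (0.27), and no interval reaches a dotted line.

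HRAS encodes a RAS GTPase that is anchored to the membrane by lipids (ENSG00000174775, GRCh38 chr11:532242-537287, minus strand). Its level was 75.8, 65.4 and 79.0 CPM in the empty vector libraries, in the order of replicates 1, 2 and 3 used for all values below. It was 97.8, 79.2 and 90.5 CPM with CIC::NUTM1, and 74.9, 67.5 and 83.2 CPM with CIC::DUX4. All CIC::NUTM1 libraries were above all empty vector libraries, with 79.2 against 79.0 CPM at the closest, while the CIC::DUX4 libraries overlapped both other groups. The mean rose from 73.4 ± 7.11 to 89.2 ± 9.41 CPM with CIC::NUTM1, 1.21-fold (log2 fold change 0.28 ± 0.09 SE, 95% interval 0.09 to 0.47, edgeR adjusted p = 0.0392).

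That call was near the threshold. It was kept in 6 of 10 other settings and in 2 of 6 refits that each left out 1 library, over which the adjusted p by edgeR or DESeq2 ran from 0.00923 to 0.218. It was lost without empty vector replicate 1 (edgeR adjusted p = 0.0696), empty vector replicate 2 (0.218), CIC::NUTM1 replicate 1 (0.185) or CIC::NUTM1 replicate 3 (0.14), and the log2 fold change was positive in every setting and refit, from 0.20 to 0.36. With CIC::DUX4 the log2 fold change of HRAS was 0.03 ± 0.09 (95% interval -0.16 to 0.22, edgeR adjusted p = 0.895). Between the fusions it was 0.25 ± 0.09 higher with CIC::NUTM1, which did not pass (95% interval 0.06 to 0.44, edgeR adjusted p = 0.128). The same difference passed in a fit that blocks on replicate number (edgeR adjusted p = 0.048). In that fit the change with CIC::NUTM1 against empty vector had an edgeR adjusted p of 0.0114.

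NRAS encodes another RAS GTPase and lies on chromosome 1 (ENSG00000213281, GRCh38 chr1:114704469-114716894, minus strand). Its level was 135, 135 and 130 CPM with empty vector, 127, 141 and 149 CPM with CIC::NUTM1, and 130, 134 and 129 CPM with CIC::DUX4. The groups overlapped throughout, and the CIC::NUTM1 libraries spread most. Log2 fold changes against empty vector were 0.06 with CIC::NUTM1 (95% interval -0.08 to 0.20, edgeR adjusted p = 0.649) and -0.03 with CIC::DUX4 (95% interval -0.16 to 0.11, edgeR adjusted p = 0.89).

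ARAF encodes a RAF kinase and is X-linked (ENSG00000078061, GRCh38 chrX:47561100-47571920, plus strand). Its level was 83.0, 76.5 and 79.3 CPM with empty vector, 88.2, 76.0 and 75.1 CPM with CIC::NUTM1, and 86.0, 86.6 and 83.7 CPM with CIC::DUX4. The CIC::DUX4 libraries all lay above the empty vector libraries, while those of CIC::NUTM1 overlapped both groups. The difference with CIC::DUX4 was a log2 fold change of 0.10 ± 0.08 and did not pass (edgeR adjusted p = 0.507). With CIC::NUTM1 it was 0.00 (95% interval -0.15 to 0.16, edgeR adjusted p = 0.99).

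BRAF encodes the RAF kinase that is most often mutated in cancer (ENSG00000157764, GRCh38 chr7:140719327-140924928, minus strand). Its level was 40.9, 43.4 and 40.3 CPM with empty vector, 40.0, 41.6 and 47.3 CPM with CIC::NUTM1, and 46.8, 48.6 and 46.2 CPM with CIC::DUX4. The CIC::DUX4 libraries again did not overlap the empty vector libraries. The difference had an unadjusted p of 0.0449 in edgeR and did not pass after adjustment (log2 fold change 0.18 ± 0.09, edgeR adjusted p = 0.246). ARAF and BRAF were the 2 members of 7 without overlap in that comparison, where 25.7% of all tested genes had none. With CIC::NUTM1 the log2 fold change of BRAF was 0.05 (95% interval -0.13 to 0.23, edgeR adjusted p = 0.785).

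The sequences before the start sites of 3 members are shown because HRAS and MAPK3 are the members with a called change, while BRAF has the lowest level per length. Each line holds the 250 bases before the RefSeq start (GRCh38.p14, minus strand), 5′ to 3′, and capitals mark the GC box GGGCGG, a letter pattern recognised by SP family factors, on either strand.
HRAS, chr11:535577-535826: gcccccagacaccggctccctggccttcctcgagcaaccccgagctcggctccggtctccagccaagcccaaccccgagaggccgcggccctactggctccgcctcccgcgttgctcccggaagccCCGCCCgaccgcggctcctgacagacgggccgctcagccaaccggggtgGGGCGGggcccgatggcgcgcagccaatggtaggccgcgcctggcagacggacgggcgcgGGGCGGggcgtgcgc
MAPK3, chr16:30123221-30123470: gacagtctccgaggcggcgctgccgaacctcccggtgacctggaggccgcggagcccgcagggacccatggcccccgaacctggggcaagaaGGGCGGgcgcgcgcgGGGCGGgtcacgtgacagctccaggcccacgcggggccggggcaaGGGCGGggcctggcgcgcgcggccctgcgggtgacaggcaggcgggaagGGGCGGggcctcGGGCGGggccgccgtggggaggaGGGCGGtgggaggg
BRAF, chr7:140924269-140924518: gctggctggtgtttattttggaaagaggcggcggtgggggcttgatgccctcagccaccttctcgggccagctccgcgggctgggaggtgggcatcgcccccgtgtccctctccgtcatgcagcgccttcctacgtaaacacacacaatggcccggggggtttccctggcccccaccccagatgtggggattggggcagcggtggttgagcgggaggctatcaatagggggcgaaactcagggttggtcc
In the full RefSeq windows of 300 bases, which run 50 bases past the start, MAPK3 held 8 GC boxes, HRAS 5, NRAS 3, MAP2K1 3 and MAP2K2 2, counting for the last 2 the window that holds any, while ARAF and BRAF held 0. Of 35116 such windows, 45.0% held at least 1. The GC box was chosen after these windows were seen, and a match is a description of letters. Its letters are all G and C, and the windows counted differ in GC content. It was 80.7% for MAPK3, 78.0% for HRAS, 73.7% for MAP2K2, 72.0% for MAP2K1, 63.0% for BRAF, 60.3% for ARAF and 57.3% for NRAS. The part of GC content in these counts was not tested. The 3 stretches lie inside the GENCODE bounds of their genes, after the outermost annotated start. Sequence before that outermost start was not searched for HRAS, MAPK3 or BRAF.

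MAP2K1 encodes MEK1, a kinase that phosphorylates ERK (ENSG00000169032, GRCh38 chr15:66386817-66492312, plus strand). Its level was 104, 108 and 111 CPM with empty vector, 107, 114 and 112 CPM with CIC::NUTM1, and 107, 106 and 111 CPM with CIC::DUX4. All groups overlapped, and this gene gave narrow intervals around 0. The log2 fold change was 0.01 with CIC::DUX4 (95% interval -0.13 to 0.14, edgeR adjusted p = 0.981) and 0.05 with CIC::NUTM1 (95% interval -0.09 to 0.18, edgeR adjusted p = 0.715).

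MAP2K2 encodes MEK2, the other ERK kinase (ENSG00000126934, GRCh38 chr19:4090321-4124129, minus strand). Its level was 285, 256 and 290.2 CPM with empty vector, 317, 278 and 296 CPM with CIC::NUTM1, and 283, 259 and 317 CPM with CIC::DUX4. The groups overlapped. Log2 fold changes were 0.05 with CIC::DUX4 (95% interval -0.10 to 0.19, edgeR adjusted p = 0.791) and 0.10 with CIC::NUTM1 (95% interval -0.05 to 0.25, edgeR adjusted p = 0.404).

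MAPK3 encodes ERK1, the last kinase of the cascade (ENSG00000102882, GRCh38 chr16:30114105-30123506, minus strand). Its level was 115, 107 and 115 CPM with empty vector, 130.3, 128 and 119 CPM with CIC::NUTM1, and 101, 101 and 111 CPM with CIC::DUX4. The CIC::NUTM1 libraries were above all others, and the CIC::DUX4 libraries overlapped those of the empty vector. Its mean was 126 ± 5.67 CPM in the CIC::NUTM1 group against 104 ± 5.90 CPM in the CIC::DUX4 group, 1.21-fold (log2 fold change 0.27 ± 0.07 SE, 95% interval 0.13 to 0.41, edgeR adjusted p = 0.0148). MAPK3 was the 1 member of 7 without overlap between the fusions, where 22% of all tested genes had none.

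Against empty vector the changes of MAPK3 had opposite signs and neither passed. With CIC::NUTM1 the log2 fold change was 0.16 ± 0.07 (95% interval 0.02 to 0.30, edgeR adjusted p = 0.126, no overlap), and with CIC::DUX4 it was -0.11 ± 0.07 (95% interval -0.25 to 0.03, edgeR adjusted p = 0.419). HRAS and MAPK3 were the 2 members of 7 without overlap with CIC::NUTM1, where 31.1% of all tested genes had none. The call between the fusions was kept in 10 of 10 other settings. It was lost in 2 of 6 refits, without CIC::DUX4 replicate 1 (edgeR adjusted p = 0.0798) and without CIC::DUX4 replicate 2 (0.0883).

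**Figure D3:**
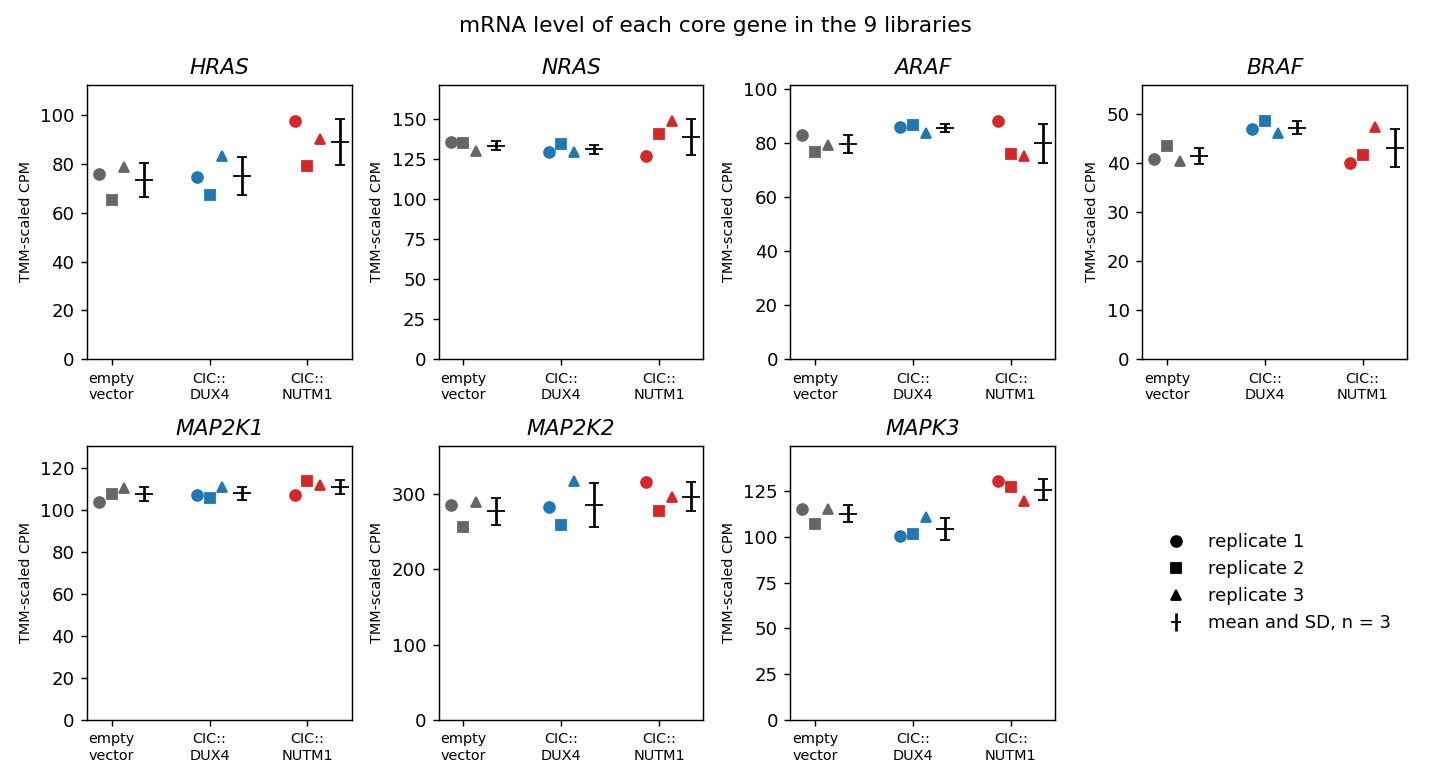
Level of each core gene in the 9 libraries as TMM-scaled CPM, on axes that start at 0; symbols mark replicates 1, 2 and 3, and crosses with bars give the mean and SD (n = 3). The CIC::NUTM1 libraries of MAPK3 (119 to 130.3 CPM) lie above those of the other groups, and replicate 2 is the lowest of its group for HRAS and MAP2K2 in all 3 groups. Against empty vector, HRAS does not overlap with CIC::NUTM1, and ARAF and BRAF do not with CIC::DUX4. All groups overlap for NRAS, MAP2K1 and MAP2K2.

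Some values carry limits of counting. For HRAS and MAP2K2, replicate 2 was the lowest library in all 3 groups. Their log2 levels correlated with r = 0.89 over the 9 libraries and 0.973 after the group means were removed. This is a description, since genes read in the same library share its preparation and depth. HRAS, MAP2K2 and MAPK3 have transcripts rich in G and C (65.2%, 65.5% and 61.8%), at the 95.6th, 96.1st and 88.7th percentile of tested genes. The median level of the 2819 tested genes with at least 60% GC moved between libraries by -0.10 to 0.10 on the log2 scale. Genes within 2.5 percentage points of HRAS in GC (1340 genes) had a median log2 fold change of -0.0014 with CIC::NUTM1 against empty vector, and those near MAPK3 (2179 genes) had -0.03 between the fusions. With an offset for the GC trend, added after the data were seen, 2 members were called with CIC::NUTM1 against empty vector (HRAS and MAPK3) and 2 between the fusions (the same names).

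Exons of 3 members overlap genes on the opposite strand, and the use of strand in counting is not given in the sources used here. BRAF overlaps NDUFB2 (15006 counts over the 9 libraries), ARAF overlaps SYN1 (180 counts), and MAP2K1 overlaps SNAPC5 (3896 counts) and AC116913.1 (234 counts). Compared with empty vector, SNAPC5 was itself called higher in the CIC::DUX4 libraries (edgeR adjusted p = 0.0331, log2 fold change 0.39) and lower in the CIC::NUTM1 than in the CIC::DUX4 libraries (-0.42, edgeR adjusted p = 0.0245), while NDUFB2 was not called in any comparison, and the part of either in the counts of BRAF or MAP2K1 was not tested. Annotated pseudogenes of ARAF and BRAF had 0 counts, and MAP2K1P1 had 8. HRAS, NRAS, MAP2K2 and MAPK3 overlap no other annotated gene.

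The balance within each pair of members at a step was also measured. It is the share of the first gene in the sum of both per kb of principal transcript. Other RAS and RAF genes are not in these sums. HRAS made up 67.9 ± 2.48% of HRAS plus NRAS with empty vector, 71.2 ± 3.33% with CIC::NUTM1 and 68.8 ± 2.65% with CIC::DUX4. ARAF made up 83.4 ± 1.04%, 82.9 ± 2.32% and 82.6 ± 0.222% of ARAF plus BRAF, and MAP2K1 made up 16.5 ± 1.01%, 16.0 ± 1.26% and 16.2 ± 1.02% of MAP2K1 plus MAP2K2, in the same order of groups. The groups overlapped in all 9 comparisons, and the two-sided exact permutation p was 0.3 to 1 (0.9 to 1 after adjustment over the 9). With 3 libraries against 3 the smallest p this test allows is 0.1, so it could not have reached the threshold. The size of the shares depends on the length used. Over all annotated exons, HRAS made up 57.3%, 53.8% and 59.3% of its pair in empty vector replicates 1, 2 and 3. In the same libraries ARAF made up 93.1%, 92.1% and 92.9%, and MAP2K1 33.7%, 37.0% and 34.7%.

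The genes around the core were read from 7 lists with 90 genes, all of them tested. With CIC::DUX4, 4 rose and 2 fell (6.67% called) and the median log2 fold change was -0.03. With CIC::NUTM1, 13 rose and 3 fell (17.8%) and the median was 0.03. Between the fusions 4 were higher with CIC::NUTM1 and 0 lower (4.44%, median 0.05). These shares are near those of all tested genes, 8.24%, 15.3% and 6.61%. Single libraries moved these counts. With CIC::NUTM1 the 16 calls became 6, 10 or 8 without empty vector replicate 1, 2 or 3, and 8 or 7 without CIC::NUTM1 replicate 1 or 3. With CIC::DUX4 the 6 calls became 3 without that group's replicate 1, and between the fusions the 4 became 7 or 2 without CIC::NUTM1 replicate 2 or 3.

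Among the regulators of RAS, 2 of 9 other RAS-like GTPases rose with CIC::NUTM1, RAP1B (98.2 to 128 CPM, log2 fold change 0.38, edgeR adjusted p = 0.000458) and RRAS2 (0.32), and 0 of 9 were called with CIC::DUX4. Of 13 exchange factors and adaptors, FRS2, a docking protein of FGF receptors, rose (0.36) and the adaptor CRK fell by 0.21 on the log2 scale with CIC::NUTM1, and 0 of 13 were called with CIC::DUX4. Of 9 RAS GTPase-activating proteins, which switch RAS off, RASAL2 rose with both fusions, from 45.7 ± 4.48 to 62.2 ± 9.25 CPM with CIC::DUX4 (0.44 on the log2 scale, edgeR adjusted p = 0.00455) and 61.2 ± 4.88 CPM with CIC::NUTM1 (0.42, edgeR adjusted p = 0.0051). The fusions share the empty vector libraries in these comparisons. RASA2 also rose with CIC::NUTM1 (0.47), and RASA1 fell by 0.32 on the log2 scale. None of 9 genes of RAS lipid modification and turnover was called in any comparison.

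At the level of RAF, MEK and ERK, 17 scaffolds and regulators held few calls. IQGAP1, a scaffold, fell from 195 to 163 CPM with CIC::DUX4 (-0.26 on the log2 scale, edgeR adjusted p = 0.0143). CDC37, a chaperone partner for kinases (0.20), and YWHAZ, a 14-3-3 protein that binds RAF (0.18), rose with CIC::NUTM1. SHOC2, which helps to activate RAF, differed between the fusions, with 55.6 CPM for CIC::NUTM1 against 41.2 CPM for CIC::DUX4 (0.43 on the log2 scale, edgeR adjusted p = 0.00415).

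The largest called change among the 90 genes was that of MAP2K3, in the list of other MAP kinase modules. MAP2K3, an activator of p38 kinases, had means of 67.8 ± 8.09 (empty vector), 88.1 ± 6.71 (CIC::DUX4) and 125 ± 12.2 CPM (CIC::NUTM1). It rose with CIC::NUTM1 (log2 fold change 0.88, edgeR adjusted p = 6.66e-08) and with CIC::DUX4 (0.37, edgeR adjusted p = 0.00689), and differed between the fusions (0.51, edgeR adjusted p = 0.000456). MAPK14, the p38 alpha kinase, rose with CIC::DUX4 (0.36) and CIC::NUTM1 (0.22). MAP3K1 (0.49) and MAPK7 (0.37), the ERK5 kinase, rose with CIC::NUTM1, and MAP3K5 fell with both fusions (-0.39 for CIC::DUX4, -0.35 for CIC::NUTM1). Of 14 kinases and transcription factors downstream of ERK, RPS6KA2, an RSK family kinase, rose with CIC::DUX4 (0.57, edgeR adjusted p = 0.000611) and CIC::NUTM1 (0.37), and MKNK2 rose with CIC::NUTM1 (0.29).

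Of these calls, those of MAPK14 and RPS6KA2 with CIC::DUX4, of RAP1B, MAP3K1, MAP2K3 and MKNK2 with CIC::NUTM1, and of MAP3K1 and MAP2K3 between the fusions held in each of the 6 refits that left out 1 library. The others lost the call in at least 1. RASAL2 lost it without CIC::DUX4 replicate 1 or without CIC::NUTM1 replicate 3, SHOC2 without CIC::NUTM1 replicate 3, and MAP2K3 with CIC::DUX4 without that group's replicate 1 or empty vector replicate 1. CRK, RASA1, RASA2 and MAP3K5 with CIC::NUTM1 kept it in 1 of 6. MAPK14 with CIC::NUTM1 (edgeR adjusted p = 0.0387) kept it in 2 of 6 and also lost it with the replicate block (0.05004) and with DESeq2 (adjusted p = 0.0573), and RASA2 lost it with DESeq2 (adjusted p = 0.0506).

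The 20 ERK feedback and output genes form the contrast to the core. In CIC::DUX4 libraries 16 of them rose, in CIC::NUTM1 libraries 18, and 0 fell in either, with median log2 fold changes of 1.96 and 2.81. Over all tested genes 6.96% and 11.5% were called higher, in the same order. This list was chosen with results of these data known and several of its genes are known CIC targets, so its direction is not independent evidence. ETV4, an ETS transcription factor, was 0.400, 0.526 and 0.600 CPM with empty vector, 254, 156 and 211 CPM with CIC::NUTM1, and 232, 165 and 182 CPM with CIC::DUX4. DUSP6, an ERK phosphatase, was 0.343, 1.29 and 0.320 CPM with empty vector, 71.9, 37.8 and 62.0 CPM with CIC::NUTM1, and 36.3, 27.3 and 29.4 CPM with CIC::DUX4. The groups with a fusion and the group without were far apart for both genes.

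SPRY4, an inhibitor of receptor signalling to RAS, had 0 counts in each empty vector library and means of 48.4 CPM in the CIC::DUX4 group and 97.3 CPM in the CIC::NUTM1 group. That is at least 383-fold and at least 769.7-fold higher than a floor of 3 counts per library, which covers counting error only. ETV5 rose to 247 CPM and 271 CPM from 0.81 CPM, and FOSL1, an AP-1 subunit, rose by 3.67 and 4.56 on the log2 scale, each in the order of CIC::DUX4 and CIC::NUTM1. EPHA4 was the smallest called change with CIC::DUX4 (0.72). DUSP5 and IER3 were not called with either fusion, and SPRY1 (-0.13) and EGR1 (-0.03) were not called with CIC::DUX4. Between the fusions 8 of 20 were higher with CIC::NUTM1, against 4.97% of all tested genes. Among them were FOS (39.2 against 12.7 CPM, log2 fold change 1.61, edgeR adjusted p = 0.000859) and EPHA2 (220 against 98.3 CPM, 1.16, edgeR adjusted p = 0.00348). With CIC::NUTM1 the calls of SPRY1 and PHLDA1 were each kept in 2 of 6 refits that left out 1 library (lost without empty vector replicate 2 or 3 or CIC::NUTM1 replicate 1, and also without CIC::NUTM1 replicate 2 for SPRY1 and replicate 3 for PHLDA1). That of EGR1 was kept in 4 of 6 (lost without empty vector replicate 2 or CIC::NUTM1 replicate 1). With CIC::DUX4, PHLDA1 lost its call without that group's replicate 1. Between the fusions the calls of CCND1 and ETV1 were kept in 2 of 6 refits and that of EGR1 in 3 of 6. ETV1 also lost it with DESeq2 (adjusted p = 0.0616). SPRY2, EPHA2, SPRY1, FOSL1 and FOS kept theirs in 6 of 6.

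**Figure D4:**
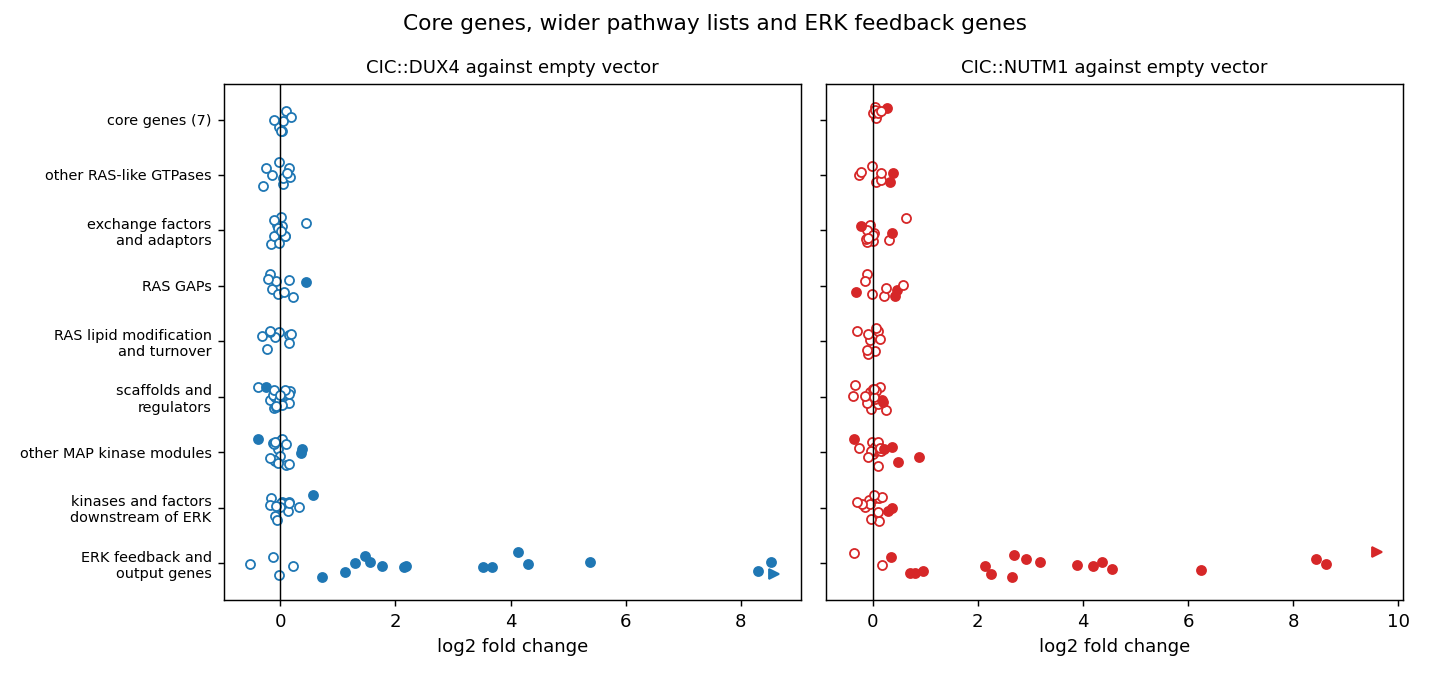
Log2 fold changes of the core genes, the 7 wider pathway lists and the ERK feedback and output genes with CIC::DUX4 (left) and CIC::NUTM1 (right) against empty vector; each point is 1 gene, filled where it passed an edgeR adjusted p of 0.05, and the arrowhead is SPRY4, plotted at its lower bound. Core genes and the wider lists lie within about 1 of 0, and the feedback genes reach past 8.

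Windows at RefSeq starts of the core genes were searched for the CIC octamers TGAATGAA, TGAATGGA, TCAATGAA and TCAATGGA on both strands. For HRAS, BRAF and MAPK3 these windows do not reach the outermost annotated start of the gene. None of the 9 windows of the 7 members held such letters. Of the 24 windows of the 13 feedback genes with an entry, 4 did (16.7%), each in another gene, and 3.77% of all 35116 windows hold at least 1. The 0 of 9 is near that background and is no result about the members. The feedback list was chosen with results of these data known and holds known CIC targets, so its 16.7% is not independent evidence. Some windows of ETV1 overlap nearly in full, so the 24 windows are not separate units. The stretches below are those of the feedback genes, shown because they carry the letters that the core windows lack, each from GRCh38.p14 (5′ to 3′ on the gene's strand, octamers in capitals and, for DUSP6, in the reverse orientation).
DUSP6, chr12:89352493-89352553, minus strand: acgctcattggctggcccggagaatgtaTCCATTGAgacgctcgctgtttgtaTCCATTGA
EPHA2, chr1:16156070-16156131, minus strand: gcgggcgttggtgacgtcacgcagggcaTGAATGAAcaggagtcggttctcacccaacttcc
SPRED3, chr19:38389571-38389634, plus strand: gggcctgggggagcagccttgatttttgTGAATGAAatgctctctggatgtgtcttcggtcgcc
ETV1, chr7:13991515-13991578, minus strand: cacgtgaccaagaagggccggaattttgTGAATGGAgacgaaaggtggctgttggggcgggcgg
These 4 genes rose with both fusions, by 5.38 and 6.25 for DUSP6, 1.76 and 2.92 for EPHA2, 4.13 and 3.88 for SPRED3, and 3.53 and 4.35 for ETV1 on the log2 scale, with CIC::DUX4 first. Feedback genes whose windows held no octamer rose with both fusions too: PHLDA1, SPRY2, SPRY4, EPHA4, SPRED1, SPRED2 and FOS. SPRY1 and EGR1, also without an octamer, were called with CIC::NUTM1 only. A match is a description of letters, and a window without one says only that these letters are not in it.

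The genes whose log2 levels followed each member most closely over the 9 libraries were sought among the 11730 genes that averaged 100 counts or more. For HRAS they were ALYREF (Pearson r = 0.981) and LRPAP1 (0.972), and 49 genes had r above 0.9. For MAPK3 they were HOXA3 (0.981) and TALDO1 (0.965), with 38 genes above 0.9. MAP2K2 had U2AF2 (0.944) and DUS1L (0.939), NRAS had SPCS3 (0.957) and RBBP8 (0.949), and ARAF had ADAL (0.968) and TMEM175 (0.937). BRAF had KDM3B (0.915) and GIT2 (0.914), with 5 genes above 0.9, and MAP2K1 had PAK3 (0.966) and UBE2T (0.951), with 2. These are descriptions, since genes read in the same library share its depth and preparation, and they were chosen as the highest of many.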

How the data were processed

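Libraries were polyA-selected and strand-directional, per the labels' protocols. The authors deposited unnormalised counts for each Ensembl gene, and a table of log2 CPM. STAR 2.7.10b, R 4.2.2, edgeR 3.40.2 and GRCh38 are named, without roles, per the submitters' processing notes, and the counting program, annotation and use of strand are not given in the sources used here. Groups came from the sample labels. The core genes, lists and tests were chosen with earlier results of these data known.

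Testing used edgeR 4.0.16 (R 4.3.3). Of 34765 genes with a count, filterByExpr kept 17576. Libraries were scaled by TMM, and glmQLFit with robust settings estimated a mean for each of the 3 groups from the 9 libraries together. The common dispersion was 0.0102. P-values were adjusted by Benjamini-Hochberg over all tested genes, and a gene was called where the result was under 0.05. SEs are the size of a log2 fold change over the root of its F statistic. P-values measure the spread between libraries of 1 cell line. The authors' log2 CPM of the members differed from values computed here (TMM, prior count 2) by at most 0.0020.

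Symbols matched 62622 of 62700 IDs. Positions, lengths (principal transcript) and GC came from GENCODE 29 on GRCh38, and promoter windows from RefSeq. Named list genes are those called, at most 4 in each direction per list and comparison. Alternatives were other scalings, filters, DESeq2 1.42.0, limma-trend (limma 3.58.1) on the authors' table, only the groups compared, a replicate block, each library left out, and, chosen after seeing the data, a GC offset and the counts over the 90 wider genes. The scripts were tested on simulated data. Figures used matplotlib 3.10.9.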

Additional observations from a re-analysis of the deposited data

Results flagged for a closer look

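MAPK3 had log2 fold changes of 0.16 with CIC::NUTM1 and -0.11 with CIC::DUX4 against the same empty vector libraries, neither of which passed, while the test of the difference between the fusions did. The change with CIC::NUTM1 minus that with CIC::DUX4 was 0.27 on the log2 scale (edgeR adjusted p = 0.0148, higher in 9 of 9 pairs of libraries). These pairs come from 3 libraries against 3 and are not independent, and 22% of all tested genes had no overlap in this comparison. The call was lost without CIC::DUX4 replicate 1 (edgeR adjusted p = 0.0798) or replicate 2 (0.0883).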

How the results depend on the processing

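No member changed by more than 0.36 on the log2 scale in any setting, and of 336 alternative values of single members 23 changed sign, none of them for a called change. Among the 7 members with CIC::NUTM1 against empty vector, 0 were called with DESeq2 size factors, library totals, upper quartile factors or DESeq2 in place of 1, and 2 with the GC offset; leaving out 1 library gave 0 to 1. Between the fusions 2 were called with the replicate block and 2 with the GC offset, and leaving out 1 library gave 0 to 2. The causes were not tested. Over all genes, those lower with CIC::NUTM1 than with empty vector numbered 1149 under library totals and 1124 under upper quartile factors in place of 673, so that 60.7% and 61.7% of calls were higher in place of 75.0%. Genes lower with CIC::NUTM1 than with CIC::DUX4 numbered 436 under library totals in place of 288 (61.5% higher in place of 75.2%). Genes lower with CIC::DUX4 numbered 380 without a filter and 407 with only those groups fitted, in place of 224, and genes higher with CIC::DUX4 numbered 804 with at least 10 counts in every library, in place of 1224. Leaving out 1 library gave 60 to 229 genes lower and 805 to 1258 higher with CIC::DUX4 (both lowest without its replicate 1), 278 to 977 lower with CIC::NUTM1 (lowest without empty vector replicate 3), 156 to 324 lower between the fusions (lowest without CIC::DUX4 replicate 1), 516 to 940 higher there (lowest without CIC::NUTM1 replicate 3), and 5 to 11 feedback genes higher between the fusions in place of 8 (5 without CIC::NUTM1 replicate 1 or CIC::DUX4 replicate 3). Same-numbered libraries of different groups correlated from -0.0308 to 0.0753 in their deviations from group means, and others from -0.108 to 0.0698, so the numbers did not pair the libraries by this measure, although the labels give separate days to replicates. Single genes can differ from it: for HRAS and MAP2K2, replicate 2 was the lowest library in all 3 groups. The replicate block gave 1222 higher and 250 lower genes for CIC::DUX4, 2012 and 727 for CIC::NUTM1, and 894 and 307 between them. It moved 1 member call, HRAS between the fusions (gained). Of the list and marker calls named above, it lost those of MAPK14 with CIC::NUTM1 and of NEFM and PTPRC with CIC::DUX4. Between the fusions it called 11 feedback genes higher in place of 8. Counting error of a member was below the spread between libraries in 19 of 21 pairs of gene and group. The exceptions were ARAF (2.38% counting error, 1.80% spread) and BRAF (3.20% and 2.68%) with CIC::DUX4.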
